A study of Mus musculus with 12 samples.

Results

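The genes that carry cells into and through mitosis were examined as 1 module of 46 named genes, chosen by function (mitotic kinases, spindle checkpoint, kinesins, kinetochore, condensin and cytokinesis). Of these, 45 were measured on a probe set (a group of probes summarised to 1 value) that the platform annotation assigns to a single gene, of 18193 genes so measured. Ccnb1, which encodes a partner of the kinase Cdk1, has no such probe set and was not analysed here. The members, and the other mitosis genes listed below, were chosen with earlier results of these data known. The share of all probe sets beside a count is therefore a description and not an independent test. Total RNA from untreated, exponentially growing MEFs (mouse embryonic fibroblasts, the connective tissue cells that grow out of a dissociated embryo) was hybridised to 12 Affymetrix arrays, with 3 arrays in each of 4 groups. TKO-Ras MEFs are labelled as deleted for Rb1, p107 (Rbl1) and p130 (Rbl2) and as carrying RasG12D, with the Ras gene and its promoter not named. TKO MEFs carry the same 3 deletions, MEFs labelled Rb1KO carry the Rb1 deletion, and WT MEFs are wild type. The series speaks of triplicates of each cell line and does not give the number of embryos or lines behind a genotype, so errors and p-values measure the spread between these RNA samples only.

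The products of Rb1, Rbl1 and Rbl2 are the pocket proteins, which bind E2F transcription factors. In resting and early cycling cells, p107 and p130 also sit in the DREAM complex, which holds mitotic genes silent through a promoter element called CHR (cell cycle genes homology region). Later in the cycle the MuvB core of that complex works with B-Myb and FoxM1 to activate the same genes. Mitosis genes are therefore transcribed mainly in cells that divide, and on arrays of bulk RNA more dividing cells and more RNA per dividing cell cannot be told apart.

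The deposited values are log2 RMA values, so a difference of 1 is a 2-fold change. All 45 measured members were above the background level of 5.13 (the 95th percentile over 44 probe sets for olfactory receptors) on all 12 arrays, with 6.95 as their lowest value. Of all probe sets, 38.4% were at or below that level on every array. The shares of all probe sets given below include these, and so are not shares over probe sets as bright as the members. Rbl1 lay between 4.0 and 4.99 on the TKO-Ras arrays, between 4.42 and 5.12 on the TKO arrays, between 8.32 and 9.0 on the arrays labelled Rb1KO and between 8.18 and 8.32 on the WT arrays. Rbl2 lay between 4.60 and 5.35 on the TKO-Ras arrays, between 5.27 and 5.71 on the TKO arrays, between 3.80 and 4.47 on the Rb1KO arrays and between 7.54 and 7.90 on the WT arrays, so the arrays labelled Rb1KO were at background for a gene that their label does not name as deleted. Rb1 itself was lower on all 9 mutant arrays (6.97 to 7.74) than on the WT arrays (8.31 to 8.70), and the deleted parts of these genes are not given in the sources used here. Of 10 fibroblast markers, 8, 8, 10 and 9 were above background on every array of the TKO-Ras, TKO, Rb1KO and WT groups, while Thy1 was at background on every TKO-Ras and TKO array. Of 6 endothelial markers, 1 (Kdr) was above background in each group. Of 6 epithelial markers 3 were above background on every array of each group, and of 6 skeletal muscle markers also 3. Of 6 macrophage and leukocyte markers, 3, 3, 2 and 2 were so in the TKO-Ras, TKO, Rb1KO and WT groups. The values of the fibroblast markers were also unlogged and summed on each array, a sum in which the brightest markers weigh most. The log2 of that sum was 15.56 to 15.61 in TKO-Ras, 16.08 to 16.23 in TKO, 15.72 to 15.83 in Rb1KO and 16.54 to 16.75 in WT MEFs. Of 6 neural markers, 4 were above background on every array of each group. The log2 of the sum over all 6, taken the same way, was 10.20 to 11.001 in TKO-Ras, 9.80 to 10.20 in TKO, 9.59 to 9.86 in Rb1KO and 11.01 to 11.11 in WT MEFs. Within that list Sox2 and Map2 ran opposite ways. Sox2 lay between 8.58 and 10.31 on the TKO-Ras and TKO arrays together and between 3.07 and 5.54 on the Rb1KO and WT arrays together, whereas Map2 was at background on the TKO-Ras and TKO arrays and lay between 8.04 and 10.72 on the Rb1KO and WT arrays. The part of these marker differences in the results for mitosis genes was not tested.

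One WT array stood apart for this module. The mean over the 45 members was 10.82, 10.73 and 10.78 on the TKO-Ras arrays, 10.75, 10.66 and 10.78 on the TKO arrays, 10.93, 10.92 and 10.92 on the Rb1KO arrays, and 9.83, 9.73 and 9.31 on the WT arrays. WT replicate 3 was the lowest WT array for 40 of the 45 members and correlated least with the other arrays of its genotype over all probe sets (mean r of 0.974). The median SD of the members was 0.12 in TKO-Ras, 0.13 in TKO, 0.09 in Rb1KO and 0.31 in WT MEFs. For the whole module, counts of members that rose over WT are therefore given with and without that array. The share of probe sets above background was 52.9% to 54.2% per array, and the 3′ minus 5′ log2 difference of the Gapdh control was -0.20 to -0.02.

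**Figure D1:**
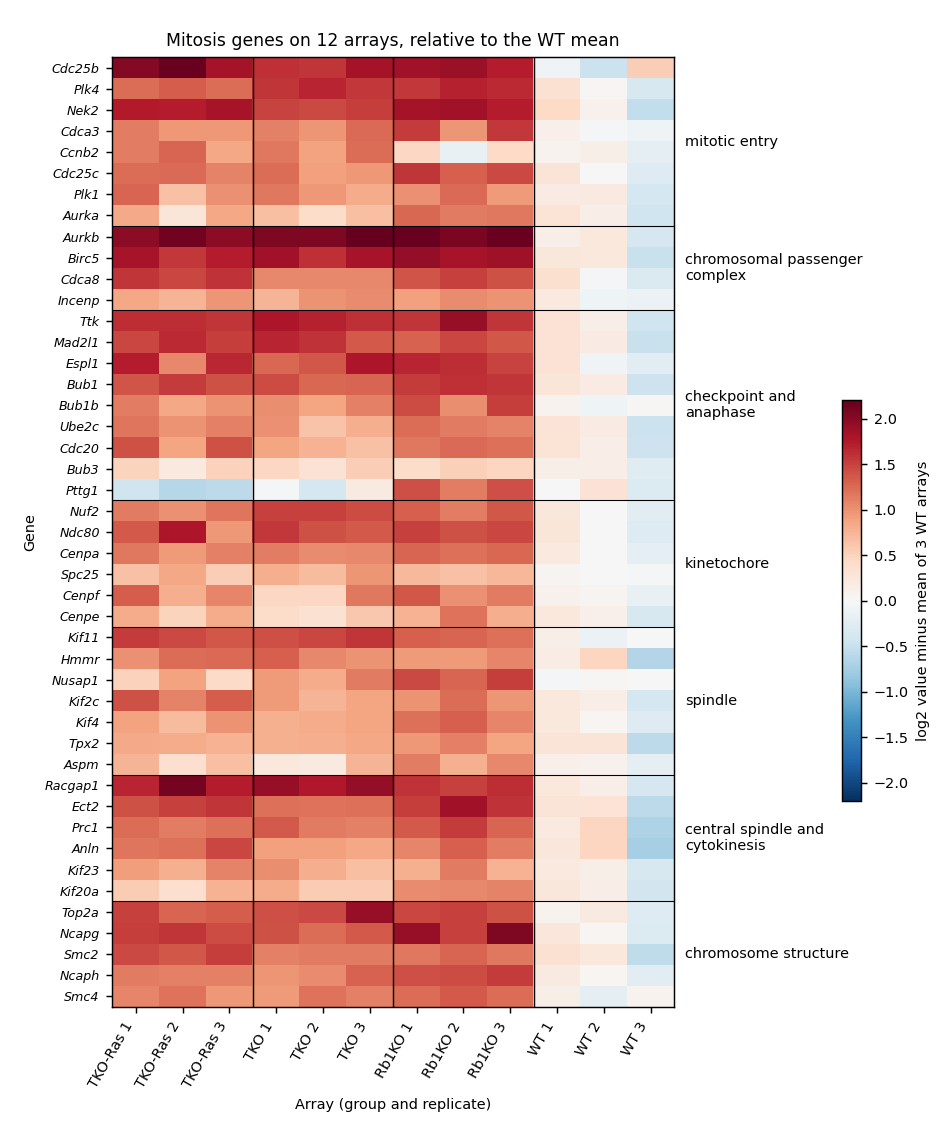
Log2 value of each of 45 mitosis genes (rows, by function) on each of 12 arrays (columns), minus the mean of the 3 WT arrays; red is higher and blue lower than that mean. Nearly every row is red on the TKO-Ras, TKO and Rb1KO arrays, Pttg1 is strongly red on the Rb1KO arrays and near the WT mean or below it on the TKO and TKO-Ras arrays, and WT replicate 3 is the lowest of the WT columns in 40 of the 45 rows.

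Mitosis genes were higher in TKO MEFs than in WT MEFs across every step of mitosis. By limma, with p-values adjusted over all 45037 probe sets, 41 of the 45 members rose at an adjusted p under 0.05, against 10.5% of all probe sets, and 0 fell, against 9.01% of all probe sets. At an unadjusted p under 0.05, 44 were higher and 0 lower, against 16.7% and 14.2% of all probe sets. The median log2 fold change of the members was 1.08 (range -0.08 to 2.11), compared with 0.03 over all probe sets, and 27 of the 41 changed by at least 2-fold. The TKO arrays lay above the WT arrays without overlap for 44 members, all except Pttg1, against 19.5% of all probe sets. Aspm, Aurka, Cenpe and Pttg1 did not pass on the brightest probe set, which stands for the gene here, although another probe set of Aspm and of Cenpe did. With only these 2 groups in the fit 34 members rose, with Bub3, Cdc20, Ube2c, Cenpf, Tpx2, Kif20a and Anln no longer past the threshold. Without WT replicate 3, 39 members rose, with Bub3 and Cenpf no longer past the threshold, and the median was 0.92. Among the fits with 1 replicate left out, that without TKO replicate 1 had the fewest, 37. Over the other alternatives the fewest was 26, with only probe sets without a suffix, where not every member had a value.

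Nearly all members rose in MEFs labelled Rb1KO too. There 44 of the 45 rose relative to WT MEFs, against 12.5% of all probe sets, and 0 fell, against 10.1% of all probe sets (44 higher and 0 lower at an unadjusted p under 0.05, against 19.3% and 14.5%). The median log2 fold change was 1.27 (range 0.24 to 2.14), compared with 0.07 over all probe sets, and 36 members changed by at least 2-fold. The member that did not pass was Ccnb2. Without WT replicate 3, 43 members rose and the median was 1.15, with Bub3 no longer past the threshold. Both comparisons use the same WT arrays and are not independent.

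**Figure D2:**
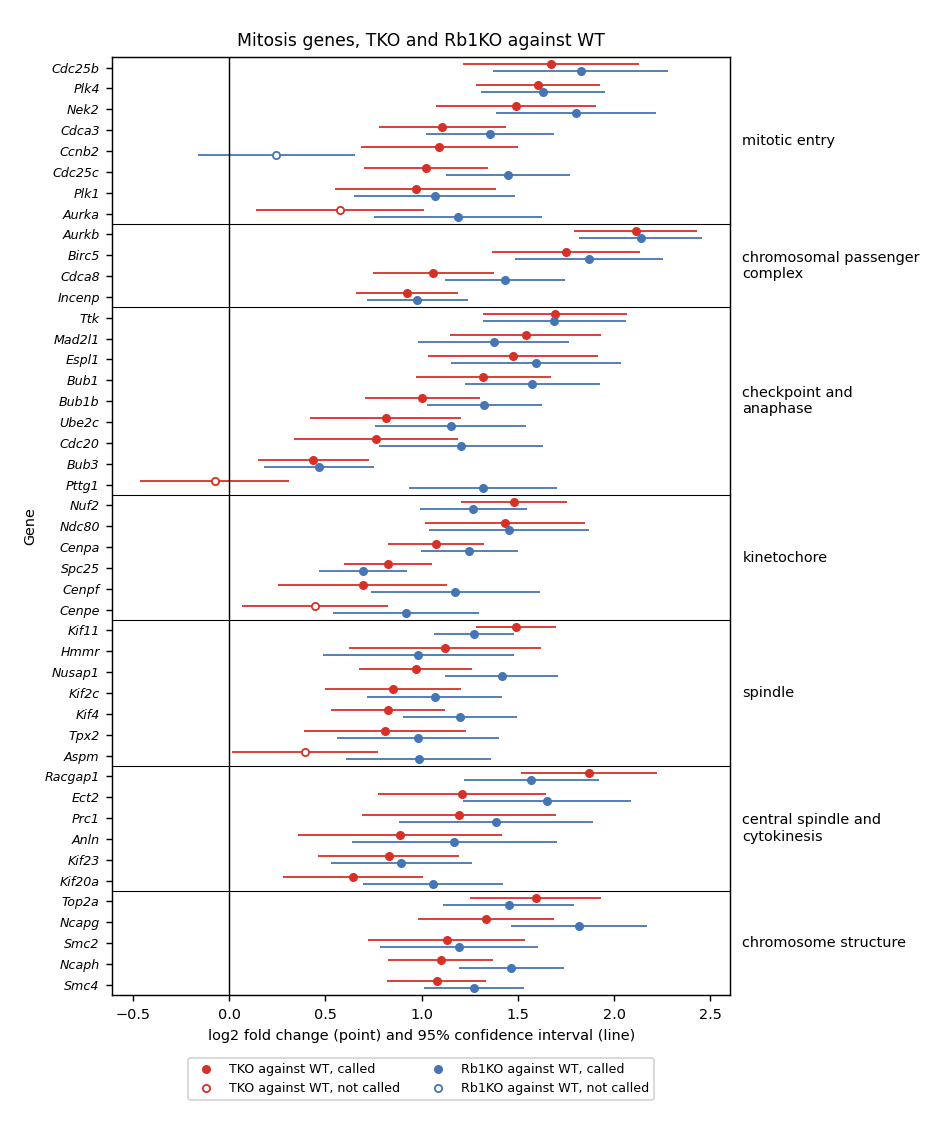
Log2 fold change over WT of each of 45 mitosis genes, by function, in TKO (red) and Rb1KO MEFs (blue); points are estimates from 3 arrays a group, lines are 95% confidence intervals, and filled points passed an adjusted p of 0.05. Open points mark Aurka, Pttg1, Cenpe and Aspm in TKO MEFs and Ccnb2 in Rb1KO MEFs.

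The members share sequence at their promoters, which the choice of genes did not use. RefSeq promoter windows of GRCm38.p6, from 250 bases before to 50 bases after the annotated start, were at hand for 40 of the 46 genes, Ccnb1 included, and 3 genes have 2 windows. They were searched on both strands for CHR (TTTGAA), its variant (TTTAAA), the CCAAT box (CCAAT) bound by the factor NF-Y, and E2F cores (TTTNNCG with C or G at both N positions); a CHR and a CCAAT box can share bases where they abut. CHR was found in 28 of the 40 genes (70.0%), compared with 17.9% of all 32851 windows. Counted by gene, as the members are, it was in 18.5% of 17492 protein-coding genes. Within 50 bases of the start it was found in 27 genes (67.5%), compared with 4.9% of all windows. The CCAAT box was found in 30 genes (75.0%), compared with 37.4% of windows and 42.3% of protein-coding genes. Both together were found in 25 genes (62.5%), compared with 7.0% of windows and 7.4% of protein-coding genes. The variant was in 11 genes (27.5%, compared with 13.2% of windows and 13.8% of protein-coding genes). An E2F core was in 6 genes (15%, compared with 6.7% of windows and 9.2% of protein-coding genes).

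Stretches from 120 bases before to 30 bases after the start are shown for 8 members, in lower case with CHR, CCAAT boxes and E2F cores of either strand in capitals. Racgap1 and Kif23, whose products form centralspindlin, show the commonest layout, with CHR just inside the transcript. Ccnb2 and Pttg1 are the members whose brightest probe set passed between TKO and Rb1KO MEFs, in opposite directions. Ttk and Aspm hold the same pair of elements and had a change in TKO MEFs that passed and one that did not. In the stretch shown, Top2a has 3 CCAAT boxes upstream of CHR, and its whole window holds 6 CCAAT boxes and a further CHR at -179. Birc5 has an E2F core and neither CHR nor a CCAAT box. The stretches lie at chr15:99651627-99651776 (minus strand), chr9:61946770-61946919 (minus strand), chr9:70421525-70421674 (minus strand), chr9:83834569-83834718 (plus strand), chr1:139454653-139454802 (plus strand), chr11:99024160-99024309 (minus strand), chr11:117849117-117849266 (plus strand) and chr11:43425952-43426101 (minus strand).
Racgap1: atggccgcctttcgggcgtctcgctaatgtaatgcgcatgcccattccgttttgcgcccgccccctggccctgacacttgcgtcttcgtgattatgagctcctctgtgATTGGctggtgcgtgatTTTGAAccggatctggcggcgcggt
Kif23: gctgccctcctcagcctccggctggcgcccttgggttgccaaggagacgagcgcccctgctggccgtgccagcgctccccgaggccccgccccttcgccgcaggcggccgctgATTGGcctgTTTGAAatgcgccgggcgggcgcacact
Ccnb2: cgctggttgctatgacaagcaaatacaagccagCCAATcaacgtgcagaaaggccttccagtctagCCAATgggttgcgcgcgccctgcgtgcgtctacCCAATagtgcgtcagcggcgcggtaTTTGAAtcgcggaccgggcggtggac
Ttk: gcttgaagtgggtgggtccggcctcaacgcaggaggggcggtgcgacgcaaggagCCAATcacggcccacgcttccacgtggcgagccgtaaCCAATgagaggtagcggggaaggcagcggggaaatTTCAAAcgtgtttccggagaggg
Aspm: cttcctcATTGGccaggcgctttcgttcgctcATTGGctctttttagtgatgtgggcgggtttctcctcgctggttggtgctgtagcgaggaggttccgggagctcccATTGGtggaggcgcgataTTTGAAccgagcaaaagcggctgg
Top2a: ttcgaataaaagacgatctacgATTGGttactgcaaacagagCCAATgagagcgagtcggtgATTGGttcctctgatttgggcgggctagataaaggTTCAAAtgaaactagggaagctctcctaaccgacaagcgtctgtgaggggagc
Birc5: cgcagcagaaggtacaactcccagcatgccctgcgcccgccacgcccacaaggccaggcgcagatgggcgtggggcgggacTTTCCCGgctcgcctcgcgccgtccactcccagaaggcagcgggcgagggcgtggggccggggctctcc
Pttg1: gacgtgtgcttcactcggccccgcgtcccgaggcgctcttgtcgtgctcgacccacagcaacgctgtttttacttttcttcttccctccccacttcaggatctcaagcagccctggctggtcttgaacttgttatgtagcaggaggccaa

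In these stretches CHR begins 6, 3, 5, 8 and 7 bases after the start in Racgap1, Kif23, Ccnb2, Ttk and Aspm, and at -23 in Top2a. The 3 CCAAT boxes of Ccnb2 begin at -87, -54 and -21. The whole windows of Pttg1, Mad2l1 and Nuf2 hold none of the 4 motifs, and of these genes Mad2l1 and Nuf2 rose in both knockouts. A match in these letters is a description of the window and not evidence of a bound site. In TKO against WT MEFs the 28 measured genes with CHR had a median log2 fold change of 1.07 (range 0.39 to 1.87). The 11 measured genes with a window but no CHR had a median of 1.48 (range -0.08 to 1.75). In Rb1KO against WT MEFs the medians were 1.20 with CHR and 1.47 without. Whether CHR goes with the size of the rise was not tested.

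**Figure D3:**
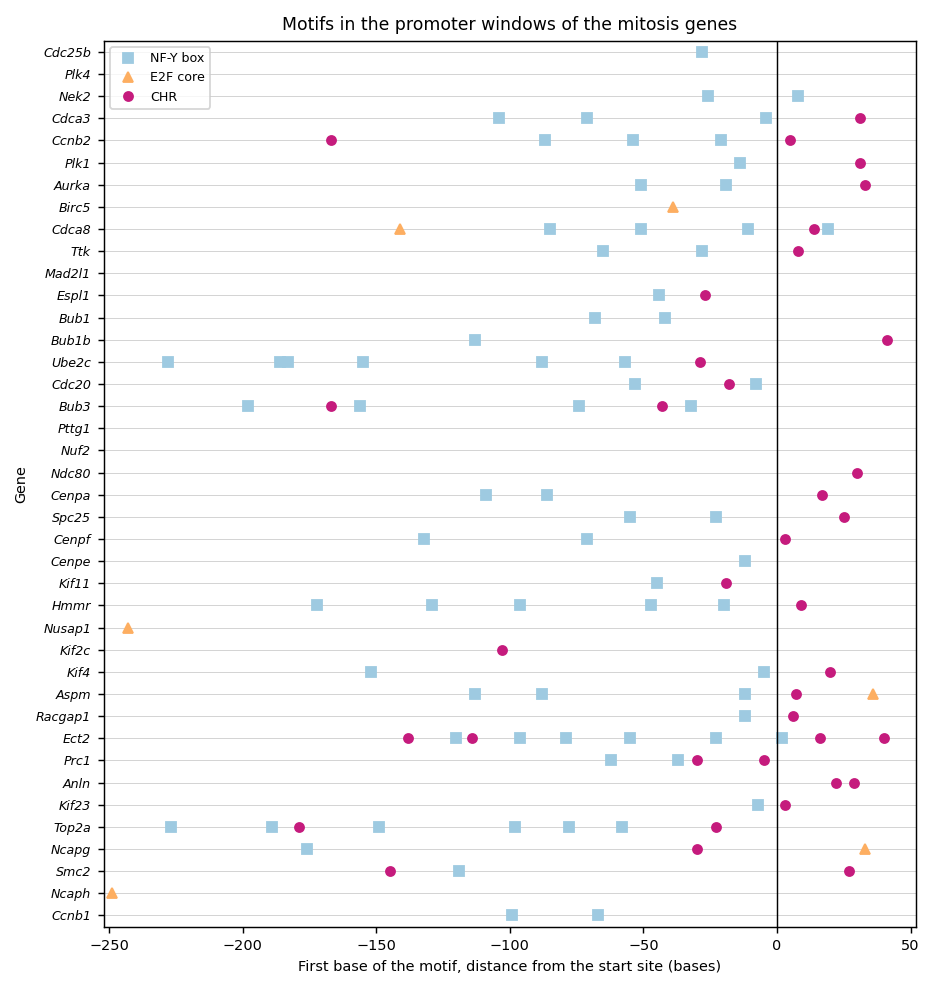
Position of CHR (circles), CCAAT boxes (NF-Y box, squares) and E2F cores (triangles) in the promoter windows of 40 mitosis genes, as the distance in bases of the motif's first base from the annotated start (black line). CHR lies within 50 bases of the start in 27 genes and the CCAAT boxes lie mostly before the start; 3 genes have 2 windows plotted on 1 row.

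Among the genes of mitotic entry, 7 of the 8 measured rose in TKO MEFs and 7 of 8 in Rb1KO MEFs, with median log2 fold changes of 1.10 and 1.40. The largest change in TKO MEFs was that of Cdc25b, a phosphatase that activates Cdk1 (1421963_a_at). Its log2 values were 9.43, 9.59 and 9.24 in TKO-Ras, 9.02, 8.99 and 9.25 in TKO, 9.27, 9.32 and 9.14 in Rb1KO, and 7.34, 6.95 and 7.96 in WT MEFs. All mutant arrays lay above all WT arrays, and here WT replicate 3 was the highest WT array. Cdc25b rose by 1.67 ± 0.21 (SE) in TKO MEFs (adjusted p = 0.00021) and 1.83 ± 0.21 in Rb1KO MEFs (adjusted p = 9.2e-05). Plk4, the kinase of centriole duplication, rose by 1.60 in TKO MEFs and 1.63 in Rb1KO MEFs, and Nek2, a kinase of centrosome separation, by 1.49 in TKO and 1.80 in Rb1KO MEFs. Paired values in parentheses are log2 fold changes over WT in TKO and then in Rb1KO MEFs. Cdca3 (1.11 and 1.36), Cdc25c (1.02 and 1.45) and the kinase Plk1 (0.97 and 1.07) rose in both as well.

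Aurka, the centrosomal Aurora kinase, had the smallest change of this group in TKO MEFs, with log2 values of 10.43, 9.87 and 10.45 in TKO-Ras, 10.26, 10.01 and 10.26 in TKO, 10.87, 10.74 and 10.76 in Rb1KO, and 9.91, 9.74 and 9.16 in WT MEFs. The 3 Rb1KO arrays were the highest of all 12, and the TKO arrays lay above the WT arrays without overlap. The log2 fold change over WT was 0.57 ± 0.20 (SE) in TKO MEFs, which missed the threshold (adjusted p = 0.066), and 1.19 ± 0.20 in Rb1KO MEFs (adjusted p = 0.0012). The difference between TKO and Rb1KO MEFs was -0.61 (95% interval -1.05 to -0.18, adjusted p = 0.096). That difference passed with array weights and with only these 2 groups in the fit (-0.65 to -0.61, largest adjusted p = 0.013). Aurka passed in TKO against WT without WT replicate 1 (0.73, adjusted p = 0.038), and with arrays centred on their median.

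Ccnb2, a B-type cyclin that activates Cdk1 (1450920_at, its only probe set), is described outside the rule for naming genes, since it was picked after its values were seen. Its log2 values were 11.11, 11.28 and 10.84 in TKO-Ras, 11.15, 10.86 and 11.22 in TKO, 10.44, 9.82 and 10.43 in Rb1KO, and 10.07, 10.12 and 9.78 in WT MEFs. The TKO-Ras and TKO arrays lay above all others, and the Rb1KO and WT arrays overlapped. The log2 fold change over WT was 1.09 ± 0.19 (SE) in TKO MEFs (adjusted p = 0.0017) and 0.24 ± 0.19 in Rb1KO MEFs (adjusted p = 0.40, 95% interval -0.16 to 0.65). On the brightest probe sets it was the 1 member called higher in TKO than in Rb1KO MEFs, by 0.85 (adjusted p = 0.017). That call was lost without Rb1KO replicate 2, TKO replicate 1 or TKO replicate 3, and without moderation of the variance (differences of 0.64 to 0.85, largest adjusted p = 0.069).

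All 4 genes of the chromosomal passenger complex, which corrects wrong attachments of chromosomes to the spindle, rose in both knockouts, with median log2 fold changes of 1.41 in TKO and 1.65 in Rb1KO MEFs. Aurkb, its kinase (1424128_x_at), had log2 values of 10.04, 10.20 and 10.05 in TKO-Ras, 10.13, 10.12 and 10.32 in TKO, 10.26, 10.14 and 10.25 in Rb1KO, and 8.23, 8.31 and 7.70 in WT MEFs. The 9 mutant arrays lay within a narrow band far above the WT arrays. This was the largest change of the module in both comparisons, 2.11 ± 0.15 (SE, 4.32-fold, adjusted p = 3.6e-06) in TKO MEFs and 2.14 ± 0.15 (4.40-fold, adjusted p = 3.0e-06) in Rb1KO MEFs. Birc5 (survivin) rose by 1.75 in TKO MEFs and 1.87 in Rb1KO MEFs, and Cdca8 (borealin) by 1.06 in TKO and 1.43 in Rb1KO MEFs.

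Incenp, the scaffold of the complex, had the smallest change of the 4 in TKO MEFs, with log2 values of 11.22, 11.12 and 11.34 in TKO-Ras, 11.13, 11.36 and 11.42 in TKO, 11.28, 11.43 and 11.37 in Rb1KO, and 10.60, 10.29 and 10.25 in WT MEFs. No mutant array overlapped the WT arrays. Incenp rose by 0.92 ± 0.12 (SE, adjusted p = 0.00029) in TKO MEFs and 0.98 ± 0.12 (adjusted p = 0.00016) in Rb1KO MEFs.

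Of the 9 genes of the spindle checkpoint and of anaphase, 8 rose in TKO MEFs and 9 in Rb1KO MEFs, with median log2 fold changes of 1.0 and 1.33. Ttk, the kinase that starts checkpoint signalling at kinetochores (1449171_at), had log2 values of 10.07, 10.08 and 10.01 in TKO-Ras, 10.22, 10.14 and 10.05 in TKO, 10.02, 10.36 and 10.02 in Rb1KO, and 8.76, 8.57 and 8.01 in WT MEFs. The mutant groups overlapped one another and none overlapped WT. Its log2 fold change was 1.69 ± 0.17 (SE) in both TKO MEFs (adjusted p = 5.0e-05) and Rb1KO MEFs (adjusted p = 4.1e-05). The checkpoint proteins Mad2l1 (1.54 in TKO and 1.37 in Rb1KO MEFs), Bub1 (1.32 and 1.58) and Bub1b (1.0 and 1.33) rose as well. So did separase Espl1 (1.47 and 1.60), which cuts cohesin, and Ube2c (0.81 and 1.15) and Cdc20 (0.76 and 1.20), which work with the anaphase-promoting complex. A dimmer probe set of Bub1 (1438571_at) rose in TKO MEFs (1.25, adjusted p = 0.0013) but not in Rb1KO MEFs (-0.26, adjusted p = 0.41). Its mean of 5.04 in Rb1KO MEFs lay below the background level. Bub3, which recruits Bub1 and Bub1b, had the smallest change that passed in TKO MEFs, 0.44 ± 0.13 (SE, adjusted p = 0.037), and 0.47 ± 0.13 in Rb1KO MEFs (adjusted p = 0.024). The Bub3 call in TKO against WT was lost in 9 of the alternatives (log2 fold changes of 0.16 to 0.50 there), among them without TKO replicate 1, 2 or 3 or WT replicate 3, and in Rb1KO against WT without Rb1KO replicate 2 or 3 or WT replicate 3. That of Cdc20 in TKO against WT was lost without TKO replicate 1 or 2 (0.71 and 0.76, adjusted p = 0.065 and 0.052).

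Pttg1, which encodes securin, the inhibitor of separase, had an order of group means that no other member had. On its main probe set (1438390_s_at) the log2 values were 11.27, 11.09 and 11.14 in TKO-Ras, 11.67, 11.33 and 11.92 in TKO, 13.13, 12.84 and 13.12 in Rb1KO, and 11.70, 12.02 and 11.41 in WT MEFs. The Rb1KO arrays lay above all others, the TKO and WT arrays overlapped, and the TKO-Ras arrays lay below all others. Pttg1 rose by 1.32 ± 0.18 (SE) in Rb1KO MEFs (adjusted p = 0.00027). In TKO MEFs the log2 fold change over WT was -0.08 (95% interval -0.46 to 0.31, adjusted p = 0.82). On the brightest probe sets it was the 1 member called lower in TKO than in Rb1KO MEFs (-1.39 ± 0.18, SE, adjusted p = 0.00056). The Pttg1 call held in every alternative tried (-1.53 to -1.24, largest adjusted p = 0.0058). Its other probe sets gave log2 fold changes of -1.82 and -1.38 in TKO against Rb1KO MEFs (adjusted p = 6.0e-05 and 0.00088). Pttg1 was also the 1 member whose lowest group mean was not that of WT.

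**Figure D4:**
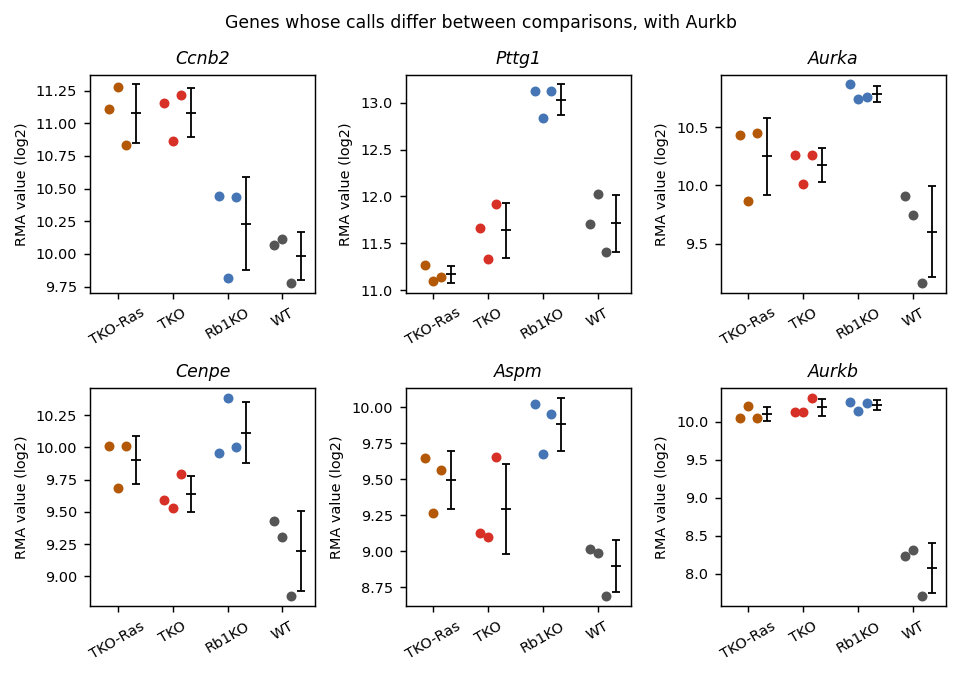
Log2 RMA values of 6 mitosis genes on each array, with 3 arrays a group; points are arrays and the bars beside them are the group mean ± SD, and each panel has its own axis, which does not start at 0. Ccnb2 is high in TKO-Ras and TKO MEFs only, Pttg1 is high in Rb1KO MEFs only, Aurka, Cenpe and Aspm are highest in Rb1KO MEFs, and Aurkb is about equally high in the 3 mutant groups.

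At the kinetochore, the structure that ties chromosomes to microtubules, 5 of 6 genes rose in TKO MEFs and 6 of 6 in Rb1KO MEFs, with median log2 fold changes of 0.95 and 1.21. Nuf2, a subunit of the microtubule-binding Ndc80 complex (1430811_a_at), had log2 values of 10.19, 10.05 and 10.24 in TKO-Ras, 10.56, 10.56 and 10.49 in TKO, 10.37, 10.18 and 10.43 in Rb1KO, and 9.31, 9.05 and 8.81 in WT MEFs. It was lowest in WT MEFs and, among the mutants, highest in TKO MEFs. Against WT, Nuf2 rose by 1.48 ± 0.13 (SE, adjusted p = 1.6e-05) in TKO MEFs and 1.27 ± 0.13 (adjusted p = 3.7e-05) in Rb1KO MEFs. Its partners Ndc80 (1.43 and 1.46) and Spc25 (0.83 and 0.70) rose as well, as did the centromeric histone Cenpa (1.08 and 1.25) and Cenpf (0.69 and 1.17). The Cenpf call in TKO against WT was lost without TKO replicate 3 (0.46, adjusted p = 0.087) and without any 1 of the WT replicates (0.61 to 0.75, adjusted p = 0.055 to 0.075). A dimmer probe set of Cenpa (1444416_at) passed in the other direction (adjusted p = 0.0027), but its mean of 4.27 in Rb1KO MEFs lay below the background level and that of 5.56 in WT MEFs just above it.

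Cenpe, the kinesin of the kinetochore (1435005_at), had the smallest change of this group in TKO MEFs, with log2 values of 10.01, 9.69 and 10.01 in TKO-Ras, 9.59, 9.53 and 9.80 in TKO, 9.96, 10.39 and 10.001 in Rb1KO, and 9.43, 9.31 and 8.85 in WT MEFs. The TKO arrays lay between the WT and the Rb1KO arrays and overlapped neither. The log2 fold change over WT was 0.45 ± 0.17 (SE, adjusted p = 0.098) in TKO MEFs and 0.92 ± 0.17 (adjusted p = 0.0025) in Rb1KO MEFs, and the difference between them was -0.47 (95% interval -0.85 to -0.10, adjusted p = 0.14). The other Cenpe probe set (1439040_at) passed in all 3 comparisons, with 0.48 in TKO against WT (adjusted p = 0.049), 1.08 in Rb1KO against WT (adjusted p = 0.00043) and -0.60 in TKO against Rb1KO MEFs (adjusted p = 0.039).

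Of the 7 genes of the spindle, 6 rose in TKO MEFs and 7 in Rb1KO MEFs, with median log2 fold changes of 0.85 and 1.07. Kif11, the kinesin that pushes spindle poles apart (1435306_a_at), had log2 values of 10.18, 10.09 and 10.01 in TKO-Ras, 10.07, 10.12 and 10.22 in TKO, 9.97, 9.94 and 9.85 in Rb1KO, and 8.78, 8.53 and 8.64 in WT MEFs. Its WT arrays spread little, and WT replicate 3 was not the lowest of them. Kif11 rose by 1.49 ± 0.10 (SE, adjusted p = 2.2e-06) in TKO MEFs and 1.27 ± 0.10 (adjusted p = 5.8e-06) in Rb1KO MEFs. Nusap1, which bundles microtubules, rose by 0.97 in TKO and 1.42 in Rb1KO MEFs, and Hmmr by 1.12 and 0.98. The kinesins Kif2c (0.85 and 1.07) and Kif4 (0.83 and 1.20) and the Aurora A activator Tpx2 (0.81 and 0.98) rose too.

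Aspm, a protein of the spindle poles (1422814_at), did not pass in TKO MEFs, with log2 values of 9.64, 9.26 and 9.56 in TKO-Ras, 9.12, 9.10 and 9.65 in TKO, 10.02, 9.67 and 9.95 in Rb1KO, and 9.01, 8.99 and 8.69 in WT MEFs. A pair of TKO arrays lay just above the WT arrays and TKO replicate 3 lay near the Rb1KO arrays. The log2 fold change over WT was 0.39 ± 0.17 (SE, adjusted p = 0.14) in TKO MEFs and 0.98 ± 0.17 (adjusted p = 0.0016) in Rb1KO MEFs, and the difference between them was -0.59 (95% interval -0.97 to -0.21, adjusted p = 0.065). Without TKO replicate 3 that difference passed (-0.77, adjusted p = 0.019). It also passed on 3 of the 4 dimmer Aspm probe sets (-0.51, -0.63 and -0.61, adjusted p = 0.01, 0.024 and 0.038). The brightest of these, 1452459_at, rose by 0.36 in TKO against WT MEFs (adjusted p = 0.026).

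All 6 genes of the central spindle and cytokinesis rose in both knockouts, with median log2 fold changes of 1.04 in TKO and 1.28 in Rb1KO MEFs. Racgap1, the centralspindlin subunit that binds Ect2 (1451358_a_at), had log2 values of 10.37, 10.79 and 10.42 in TKO-Ras, 10.60, 10.45 and 10.62 in TKO, 10.28, 10.19 and 10.31 in Rb1KO, and 8.93, 8.83 and 8.31 in WT MEFs. All mutant arrays were well above the WT arrays. Racgap1 rose by 1.87 ± 0.16 (SE, 3.65-fold, adjusted p = 1.7e-05) in TKO MEFs and 1.57 ± 0.16 (2.97-fold, adjusted p = 4.5e-05) in Rb1KO MEFs. Ect2, which activates RhoA at the cleavage furrow, rose by 1.21 in TKO and 1.65 in Rb1KO MEFs. Prc1, which bundles the central spindle (1.19 and 1.39), the ring scaffold Anln (0.89 and 1.17) and the centralspindlin kinesin Kif23 (0.83 and 0.90) rose as well. The Anln call in TKO against WT was lost without any 1 of the TKO replicates (0.88 to 0.91, adjusted p = 0.051 to 0.07). With CHR and a CCAAT box at like places, Racgap1 and Kif23 had log2 fold changes of 1.87 and 0.83 in TKO MEFs.

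Kif20a, a kinesin of the central spindle (1449207_a_at), had the smallest change of these 6 in TKO MEFs, with log2 values of 10.56, 10.38 and 10.78 in TKO-Ras, 10.82, 10.56 and 10.56 in TKO, 11.05, 11.06 and 11.09 in Rb1KO, and 10.26, 10.16 and 9.60 in WT MEFs. The Rb1KO arrays were the highest and close together. Kif20a rose by 0.64 ± 0.17 (SE, adjusted p = 0.018) in TKO MEFs and 1.06 ± 0.17 (adjusted p = 0.00081) in Rb1KO MEFs. The call in TKO against WT was lost without TKO replicate 1 (0.56, adjusted p = 0.079).

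All 5 genes of chromosome structure rose by at least 2-fold in both knockouts, with median log2 fold changes of 1.13 in TKO and 1.45 in Rb1KO MEFs. Top2a, the topoisomerase that untangles sister chromatids (1454694_a_at), had log2 values of 12.53, 12.30 and 12.36 in TKO-Ras, 12.44, 12.47 and 12.93 in TKO, 12.49, 12.52 and 12.42 in Rb1KO, and 11.10, 11.22 and 10.74 in WT MEFs. The mutant groups overlapped one another, with TKO replicate 3 highest. Top2a rose by 1.59 ± 0.15 (SE, adjusted p = 3.9e-05) in TKO MEFs and 1.45 ± 0.15 (adjusted p = 5.8e-05) in Rb1KO MEFs. The condensin subunits Ncapg (1.33 and 1.82), Ncaph (1.10 and 1.47) and Smc2 (1.13 and 1.19) rose too.

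Smc4, the partner of Smc2 in condensin (1427275_at), had the smallest change of these 5 in TKO MEFs. Its log2 values were 12.36, 12.48 and 12.24 in TKO-Ras, 12.22, 12.48 and 12.40 in TKO, 12.52, 12.64 and 12.52 in Rb1KO, and 11.42, 11.07 and 11.37 in WT MEFs. Every mutant array lay above every WT array. Smc4 rose by 1.08 ± 0.12 (SE, adjusted p = 8.6e-05) in TKO MEFs and 1.27 ± 0.12 (adjusted p = 2.3e-05) in Rb1KO MEFs.

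Between TKO and Rb1KO MEFs few members passed the test in the main fit, which shares 1 estimate of spread across all 4 groups. The WT arrays, not compared here, had a larger median SD of the members (0.31) than the TKO (0.13) and Rb1KO (0.09) arrays. Of 45, 1 was higher in TKO MEFs (Ccnb2), against 4.19% of all probe sets, and 1 was lower (Pttg1), against 2.99% of all probe sets. Over all 112 probe sets of the members, 3 were higher and 8 lower, the 8 being all 3 of Pttg1, 3 of Aspm and 1 each of Cenpe and Cenpf. The 3 higher were that of Ccnb2, a dimmer one of Bub1 (1438571_at, 1.51, adjusted p = 0.00086) and a dimmer one of Cenpa (1444416_at, 1.41, adjusted p = 0.0046). The brightest probe sets of Bub1 and Cenpa had estimates below 0 (-0.25 and -0.17) that did not pass. The number of lower members depended on the fit, with 10 when arrays were weighted and 6 when only these 2 groups were fitted. At an unadjusted p under 0.05, 2 were higher and 15 lower, against 9.47% and 10.7% of all probe sets. Without overlap, the TKO arrays lay above the Rb1KO arrays for 4 members and below for 22, against 12.8% and 16.3% of all probe sets. The point estimates leaned one way, with 36 of 45 members below 0 and a median log2 fold change of -0.19, compared with -0.04 over all probe sets. The members with the next lowest estimates after Pttg1 were Aurka, Aspm (both above) and Ncapg (-0.49, adjusted p = 0.10), which passed without Rb1KO replicate 2 (-0.65, adjusted p = 0.037). Without TKO replicate 3 Cenpf passed (-0.71, adjusted p = 0.037). For 42 members the 95% interval of the difference lay within 1 log2 unit of 0 on both sides, all except Pttg1, Ccnb2 and Aurka. The order of the 4 group means was Rb1KO, TKO-Ras, TKO and WT from high to low for 15 members and Rb1KO, TKO, TKO-Ras and WT for 13. WT had the lowest mean for 44 of the 45.

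No member passed the test between TKO-Ras and TKO MEFs by limma. Of 45, 0 were higher in TKO-Ras MEFs, against 2.54% of all probe sets, and 0 were lower, against 3.13% of all probe sets. At an unadjusted p under 0.05, 3 were higher and 4 lower, against 10.4% and 8.72% of all probe sets. The median log2 fold change was 0.0034 (range -0.47 to 0.48), compared with 0.04 over all probe sets. The highest estimates were those of Cdca8 (0.48, 95% interval 0.17 to 0.80, adjusted p = 0.077), Cdc20 (0.46, adjusted p = 0.22) and Kif2c (0.43, adjusted p = 0.17). The lowest were those of Pttg1 (-0.47, adjusted p = 0.17), Nuf2 (-0.38, adjusted p = 0.12) and Nusap1 (-0.36, adjusted p = 0.16), which passed without TKO-Ras replicate 2 (-0.51, adjusted p = 0.038). For all 45 members the 95% interval lay within 1 log2 unit of 0, from -0.85 at its lowest to 0.93 at its highest.

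**Figure D5:**
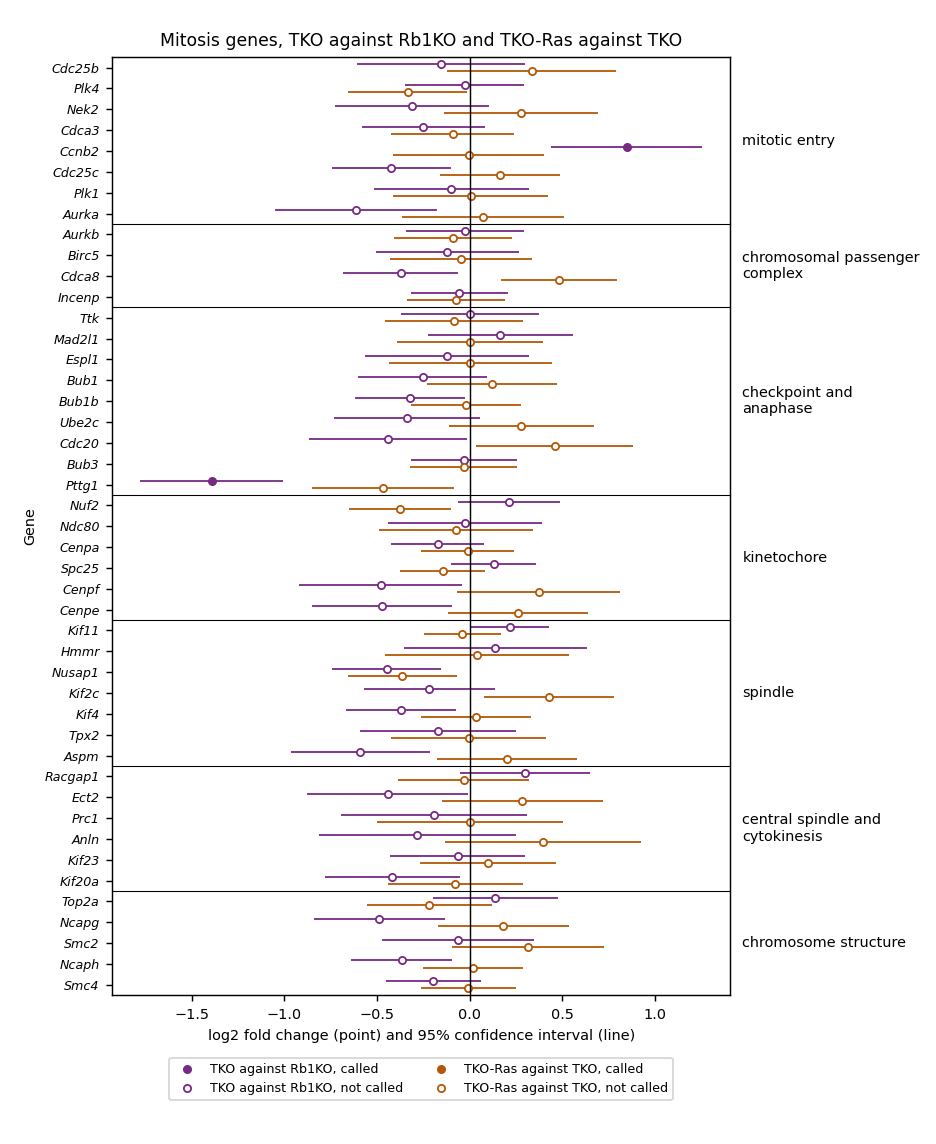
Log2 fold change of each of 45 mitosis genes, by function, in TKO over Rb1KO MEFs (purple) and in TKO-Ras over TKO MEFs (orange); points are estimates from 3 arrays a group, lines are 95% confidence intervals, and filled points passed an adjusted p of 0.05. The filled points are Ccnb2 and Pttg1 in TKO over Rb1KO MEFs, and every TKO-Ras interval lies between -0.85 and 0.93.

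Of 105 other genes of mitosis listed by function, 103 were measured. In TKO against WT MEFs 75 rose, 1 fell and 27 did not pass, against 10.5% of all probe sets higher and 9.01% lower, with a median log2 fold change of 0.93. In Rb1KO against WT MEFs 79 rose, 1 fell and 23 did not pass, against 12.5% higher and 10.1% lower, with a median of 1.0. With 1 replicate left out, 69 to 77 rose in TKO against WT MEFs and 75 to 80 in Rb1KO against WT MEFs. Over the other alternatives these counts were 66 to 79 and 68 to 82. The groups of this list were uneven. All 4 other condensin subunits, 16 of 17 spindle and centrosome genes and 20 of 25 kinetochore genes rose in TKO MEFs (medians 1.17, 1.10 and 1.24), while 4 of 14 genes of the anaphase-promoting complex rose (median 0.20). Of the cohesin genes 9 of 13 rose (median 0.52), and of the other cytokinesis genes 4 of 8 rose (median 0.38).

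The largest log2 fold changes in TKO against WT MEFs in this list were those of Haspin, a histone kinase of centromeres (2.45 ± 0.25, SE, adjusted p = 5.2e-05), the Ndc80 complex subunit Spc24 (2.37 ± 0.18, adjusted p = 8.1e-06), the centromere protein Cenpp (2.26 ± 0.19, adjusted p = 1.5e-05) and the cohesin acetyltransferase Esco2 (2.25 ± 0.16, adjusted p = 5.4e-06). Haspin had log2 values of 9.05, 8.92 and 9.09 in TKO MEFs and 6.99, 6.82 and 5.91 in WT MEFs, so WT replicate 3 was again the lowest. The smallest that passed were those of Sept7, a septin (-0.47, adjusted p = 0.0046), Anapc7 of the anaphase-promoting complex (0.41, adjusted p = 0.0059), the cohesin subunit Stag1 (0.42, adjusted p = 0.026) and the cohesin loader Nipbl (0.47, adjusted p = 0.0094).

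The remaining calls in this list are named after their values were seen. Cdc27, of the anaphase-promoting complex, was the 1 gene lower in Rb1KO than in WT MEFs (-0.36, adjusted p = 0.038), a call lost without any 1 of the Rb1KO replicates and without WT replicate 1 or 2. In TKO against Rb1KO MEFs Anapc11, of the same complex, was higher (0.51, adjusted p = 0.018, lost without Rb1KO replicate 2 or 3 or TKO replicate 1 or 3), and Trip13, an ATPase that remodels Mad2l1 (-1.20, adjusted p = 0.0018), Stag1 (-0.67, adjusted p = 0.0048), the microtubule polymerase Ckap5 (-0.50, adjusted p = 0.017) and Sept7 (-0.36, adjusted p = 0.042) were lower. The calls of Trip13 and Stag1 held without any 1 replicate of these groups, that of Ckap5 was lost without Rb1KO replicate 2 or 3 or TKO replicate 1 or 2 (-0.59 to -0.45 over all 6), and that of Sept7 was lost without any 1 of the 6 (-0.39 to -0.30). These 1 higher and 4 lower genes of 103 stand against 4.19% and 2.99% of all probe sets. Trip13 had log2 values of 10.43, 10.47 and 10.13 in TKO, 11.52, 11.67 and 11.44 in Rb1KO, and 10.06, 9.53 and 9.23 in WT MEFs, with no overlap among the 3 groups. In TKO-Ras against TKO MEFs Nipbl (-0.59, adjusted p = 0.0083), Cenpm (-0.71, adjusted p = 0.019) and Cenpj (-0.50, adjusted p = 0.043) were lower and 0 of the 103 genes were higher (7 at an unadjusted p under 0.05, against 10.4% of all probe sets). These 3 of 103 are near the 3.13% of all probe sets that were lower. The call of Nipbl held without any 1 replicate, that of Cenpm held in 2 of the 6 fits, and that of Cenpj in 0 (-0.57 to -0.41, largest adjusted p = 0.15).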

How the data were processed

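RNA of 12 MEF samples (100 ng of total RNA each) was labelled with an Affymetrix 3′ IVT kit and measured on MOE430 2.0 arrays. According to the submitters' processing notes and the methods, the authors used Partek 6.5 and RMA. The deposited log2 values are 1 per probe set and array; their log2 scale was read from the values, which run from 2.18 to 14.92. The 64 control probe sets were left out.

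All 12 arrays were fitted together with limma 3.58.1 in R 4.3.3 (4 groups, 4 contrasts, 8 residual degrees of freedom), and 2-sided p-values were adjusted after Benjamini and Hochberg over 45037 probe sets. The methods' contrasts without moderation were an alternative. A probe set was called at an adjusted p under 0.05. For each gene the probe set with the highest mean across all arrays was taken; 34945 probe sets carry 1 gene symbol in the platform annotation, and the measured members have 112. All measured members are given. Values on every array are given for the member with the largest and the smallest change in TKO against WT MEFs in each functional group, and for members that did not pass there or were lower anywhere. Of the other mitosis genes the 4 largest and 4 smallest called changes are named. The members and lists were chosen with earlier results of these data known. The number of arrays limits the precision. Promoter windows were read with Python 3.11.15 and figures drawn with matplotlib 3.10.9.

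Alternatives were an intensity trend, weights for arrays, a block for replicate number (statmod 1.5.0 loaded), only the groups compared, median centring, cyclic loess, only probe sets above background on 3 arrays, the mean of a gene's probe sets, only probe sets without a suffix, other background percentiles, and each replicate left out. The fit was tested on simulated data.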

Additional observations from a re-analysis of the deposited data

How the results depend on the processing

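The median log2 fold change of the mitosis genes kept its sign in each alternative in TKO against WT MEFs (0.92 to 1.17), in Rb1KO against WT MEFs (1.14 to 1.36) and in TKO against Rb1KO MEFs (-0.23 to -0.15). In TKO-Ras against TKO MEFs, where it was 0.0034, it was -0.033 with arrays centred on their median, -0.0022 after cyclic loess and -0.0185 to 0.0503 with a replicate left out.

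With only probe sets without a suffix, 35 members had a value, of which 26 rose in TKO against WT MEFs; in Rb1KO against WT MEFs 1 member (Cenpa, -1.30, on a probe set below background in Rb1KO MEFs) was lower, and in TKO against Rb1KO MEFs 2 were higher (Cenpa, 1.41, among them). Fewer genes are tested there. With each gene's probe sets averaged, Bub1 was 0.63 higher in TKO than in Rb1KO MEFs, and 2 members were higher and 2 lower in that comparison. Without moderation 0 members were higher there. Members lower in TKO than in Rb1KO MEFs numbered 10 with array weights, 6 with only the 2 groups in the fit and 2 with only probe sets above background. Members higher in TKO-Ras than in TKO MEFs numbered 3 with array weights and 1 with only the 2 groups. The array weights were lowest for WT replicate 3 (0.278). The cause of these shifts was not tested.

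With a replicate left out, members that rose numbered 37 (without TKO replicate 1) to 41 in TKO against WT MEFs and 43 to 44 in Rb1KO against WT MEFs. In TKO against Rb1KO MEFs 0 to 1 were higher (0 without Rb1KO replicate 2, TKO replicate 1 or TKO replicate 3) and 1 to 3 lower: 2 were lower without Rb1KO replicate 2 and 3 without TKO replicate 3. In TKO-Ras against TKO MEFs 0 were higher and 0 to 1 lower, the 1 being Nusap1 without TKO-Ras replicate 2.

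Of the other mitosis genes, those lower in TKO against WT MEFs numbered 3 with array weights, 2 after cyclic loess, 0 with probe sets averaged and 1 to 2 with a replicate left out (2 without WT replicate 3). Those lower in Rb1KO against WT MEFs numbered 2 without moderation, 0 with only the 2 groups, 4 after cyclic loess, 2 without suffixed probe sets and 0 to 1 with a replicate left out (1 without WT replicate 3). In TKO against Rb1KO MEFs those higher numbered 6 with array weights, 3 with only the 2 groups, 2 with median centring, cyclic loess or only probe sets above background, 0 without suffixed probe sets and 0 to 2 with a replicate left out (2 without Rb1KO replicate 1, 0 without Rb1KO replicate 2 or 3 or TKO replicate 3), and those lower 10 with array weights and 2 to 3 with a replicate left out (2 without Rb1KO replicate 2 or 3 or TKO replicate 2). In TKO-Ras against TKO MEFs those higher numbered 1 with array weights or only the 2 groups and 0 to 1 with a replicate left out (1 without TKO-Ras replicate 2), and those lower 7 with array weights, 1 without moderation and 1 to 3 with a replicate left out.

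Deviations from the group mean were correlated between arrays with the same replicate number at -0.21 to 0.19. In Rb1KO against WT MEFs all 3 correlations were above 0 (0.03, 0.15 and 0.19). Whether arrays with the same number share a step of the work was not tested. With the replicate block, 40 members rose in TKO against WT MEFs and 44 in Rb1KO against WT MEFs, and 0 other mitosis genes were lower in Rb1KO against WT MEFs. The background level was 3.84 with the 50th percentile of probe sets for olfactory receptors and 5.82 with the 99th.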
